A study of Mus musculus with 11 samples.

Results

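The tricarboxylic acid (TCA) cycle was followed through 9 genes: Cs, Aco1, Idh1, Idh2, Idh3a, Ogdh, Mdh1, Mdh2 and Fh1. The genes were chosen by name, as enzymes of the cycle or isozymes of them. They are 9 of the 28222 genes in the count table, and all 9 passed the filter on low counts in every comparison. The libraries were made from polyadenylated RNA of cultured mouse mesenchymal stem cells (MSCs), stromal cells that can form bone and fat cells. The study asked how metabolism, chromatin and stem cell properties of MSCs change with age. All 4 libraries of batch A came from young mice and all 3 of batch C from old mice, while batch B had 2 libraries of each age. Young mice were 3 to 5 months old and old mice 18 to 22 months old, and MSCs of both ages were kept at 2% O2 in αMEM with 10% FBS. Age could therefore be separated from batch only within batch B. The labels give no strain, sex, tissue or genotype, nor whether libraries came from separate mice, so that p-values measure only the spread between these libraries, which may be technical.

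The TCA cycle oxidises the acetyl group of acetyl-CoA in the mitochondrial matrix. It yields CO2, reduced cofactors for the respiratory chain, and intermediates that are drawn off for biosynthesis. Citrate leaves mitochondria and is cleaved to the cytosolic acetyl-CoA used for lipid synthesis and histone acetylation, while 2-oxoglutarate, succinate and fumarate influence dioxygenases that demethylate DNA and histones. Not every gene of the set acts in the matrix. Cs (citrate synthase), Idh3a (catalytic subunit of the NAD-dependent isocitrate dehydrogenase), Ogdh (2-oxoglutarate dehydrogenase) and Mdh2 (mitochondrial malate dehydrogenase) do. Fh1 (fumarase) acts in mitochondria and also in the cytosol. Idh2 is the mitochondrial isocitrate dehydrogenase that uses NADP. Aco1, Idh1 and Mdh1 encode the chiefly cytosolic aconitase, NADP-dependent isocitrate dehydrogenase and malate dehydrogenase, so the set is wider than the cycle in its strict sense. Aco1 protein without its iron-sulphur cluster is also known as an iron regulatory protein that binds RNA.

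All coordinates refer to GRCm38, the build named in the submitters' processing notes, and were taken from GENCODE M21. Cs (ENSMUSG00000005683) lies on the plus strand at chr10:128337734-128362479, and Mdh2 (ENSMUSG00000019179) on the plus strand at chr5:135778480-135790398. Fh1 (ENSMUSG00000026526, chr1:175600374-175625635) and Idh1 (ENSMUSG00000025950, chr1:65158616-65186500) lie on the minus strand of the same chromosome. Ogdh (ENSMUSG00000020456, plus strand, chr11:6291633-6356642) and Mdh1 (ENSMUSG00000020321, minus strand, chr11:21556787-21572367) share another. Aco1 (ENSMUSG00000028405, plus strand) lies at chr4:40143081-40198338, Idh2 (ENSMUSG00000030541, minus strand) at chr7:80094846-80115392 and Idh3a (ENSMUSG00000032279, plus strand) at chr9:54586334-54604661. Mdh1 shares 52 exonic bases with Wdpcp on the opposite strand, and the strand setting of the counting is not given in the sources used here. Of the 50-base stretches of the longest coding Cs transcript, 4% (115 of 2877) also occur in the citrate synthase-like gene Csl, which had 0 to 6 counts per library. No such stretch was shared between the longest coding transcript of the other 8 genes and another annotated gene.

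Promoters are shown for Cs, Mdh2 and Idh1, since these genes had the widest ranges over the 11 libraries. RefSeq promoter windows (GRCm38.p6, the 250 bases before the annotated start) were found for 8 of the 9 genes, all but Idh3a. Capitals mark matches to the searched motifs, and each sequence is written 5′ to 3′ on the strand of the gene. The Cs window (chr10:128337477-128337726, plus strand) is printed whole. Of the windows of Idh1 (chr1:65186501-65186688 printed, minus strand) and Mdh2 (chr5:135778399-135778479 printed, plus strand), 188 and 81 bases are printed, because 62 and 169 bases of them lie in 5′ untranslated regions annotated by GENCODE on either strand.
Cs: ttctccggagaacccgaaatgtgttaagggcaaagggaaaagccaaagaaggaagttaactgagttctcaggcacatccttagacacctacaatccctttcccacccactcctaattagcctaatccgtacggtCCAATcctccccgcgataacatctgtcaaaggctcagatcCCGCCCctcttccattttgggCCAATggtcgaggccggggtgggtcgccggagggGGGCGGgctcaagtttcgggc
Idh1: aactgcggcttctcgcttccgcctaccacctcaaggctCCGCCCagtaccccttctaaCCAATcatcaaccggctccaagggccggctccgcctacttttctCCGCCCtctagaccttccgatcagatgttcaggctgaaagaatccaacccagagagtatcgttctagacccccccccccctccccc
Mdh2: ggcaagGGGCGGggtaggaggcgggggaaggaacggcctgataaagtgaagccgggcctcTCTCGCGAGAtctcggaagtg

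The motifs were searched on both strands, and no marked matches overlapped each other. The GC box (GGGCGG) occurs in 32.7% of all 32851 promoter windows of this length and the CCAAT box (CCAAT) in 33.8%. The Cs window held 2 of each, the whole Idh1 window 2 GC boxes and 1 CCAAT box, and the whole Mdh2 window 1 GC box. The Mdh2 window also held 3 copies of TCTCGCGAGA, which occurs in 0.39% of windows. This is the palindromic word of 10 bases repeated most often in that window, and it was searched after the window had been read. One copy lies in the printed stretch and the other two in the untranslated region. The letters of the NRF1 motif (GCGCA followed by its reverse complement, 0.782% of windows), of an ERR motif (TCAAGGTCA, 0.387%) and of a sterol element (TCACNCCAC, 1.05%) were not found in any of the 8 windows. The hypoxia element core ACGTG (16.6% of windows) occurred once each in the windows of Ogdh and Mdh1.

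Library totals lay between 11969336 and 20315934 counts, and the 9 genes had between 451 and 3808 counts each in every library. For some genes and groups the spread between libraries was no larger than the counting error of such counts, as for Ogdh in batch C old, with a coefficient of variation of 0.97%. The biological coefficient of variation over all genes was 18.6% in batch B young and 10.8% in batch B old, while it was 12.1% in batch A and 5.35% in batch C. MSC markers were abundant in all libraries, with a summed level of 3107 to 3725 CPM (counts relative to the TMM-scaled size of the library) for 8 markers. Leukocyte and macrophage markers were present too, and none of these 12 genes was at 0 throughout a group. Their summed level was 717 to 1519 CPM in batch A young, 428 to 850.3 CPM in batch B young, 853 to 1199 CPM in batch B old, and 171 to 199 CPM in the libraries of batch C. The summed level of 8 genes of dividing cells was 219 to 459 CPM, 126 to 143 CPM, 179 to 264 CPM and 432 to 504 CPM in the same order. Endothelial markers summed to at most 10.6 CPM and erythroid markers to at most 3.84 CPM. In bulk RNA, fewer cells of a type and less RNA per cell cannot be told apart.

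Levels of different genes were compared per kilobase of the longest coding transcript. Mdh2 had the highest level of the 9 genes, with a median of 114 CPM per kb over the 11 libraries and a range of 62.1 to 141. Idh1 (median 64.0, range 37.6 to 78.9) and Cs (median 59.6, range 37.1 to 72.1) followed. Mdh1, Idh2 and Ogdh had medians of 46.6, 41.6 and 35.2 CPM per kb. The lowest were Fh1 (19.2), Aco1 (17.4) and Idh3a (15.8). The ranges of all neighbours in this order overlapped, and in batch C old replicate 2 the level of Idh1 (64.0 CPM per kb) was above that of Mdh2 (62.1 CPM per kb). With all 21 genes of the cycle counted, Mdh2 ranked 1 and Idh3a 20. With the length of all merged exons in place of the transcript, Idh1 ranked 2 and Mdh2 ranked 3 of the 21 genes, so that the order at the top depended on the length used.

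**Figure D1:**
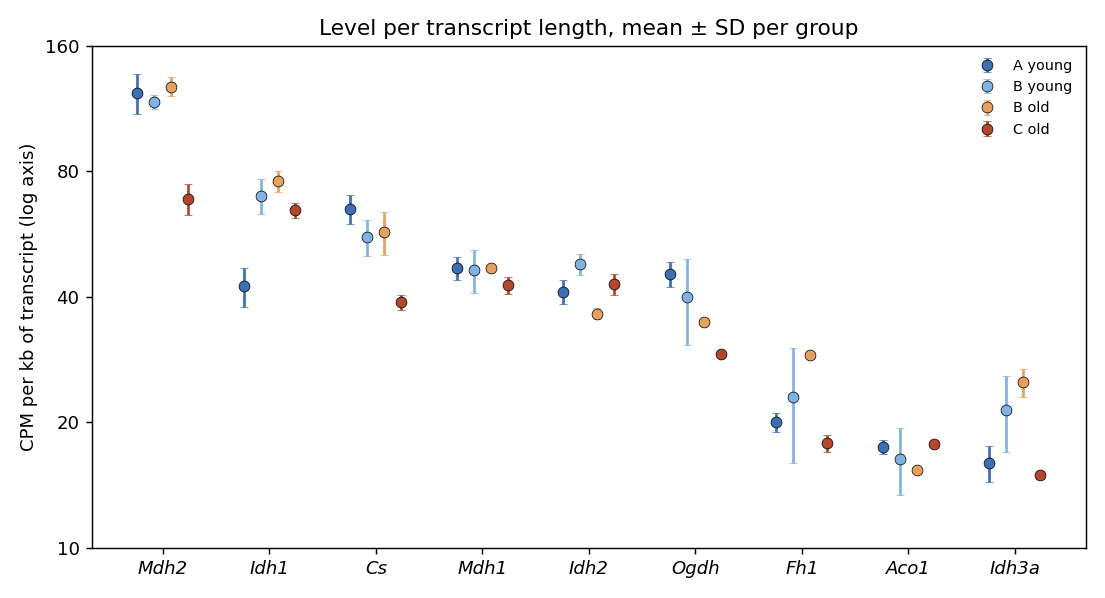
Level per transcript length of the 9 genes in CPM per kb of the longest coding transcript (y axis, log scale), as mean ± SD of each group of libraries, ordered by the median over 11 libraries. Mdh2 sits between 117 and 128 CPM per kb in batches A and B and at 68.8 CPM per kb in batch C old, and Idh1 is lowest in batch A young (42.4 CPM per kb).

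The 9 genes differed in how far they varied. Between the lowest and the highest library, Mdh2 varied 2.27-fold, Idh1 2.10-fold, Cs 1.94-fold and Idh3a 1.80-fold in CPM. Ogdh varied 1.72-fold and Fh1 1.70-fold. Idh2 varied 1.40-fold, Aco1 1.30-fold and Mdh1 1.24-fold. Of the 3 chiefly cytosolic enzymes, Aco1 and Mdh1 were among the least variable genes and Idh1 was the most variable after Mdh2.

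**Figure D2:**
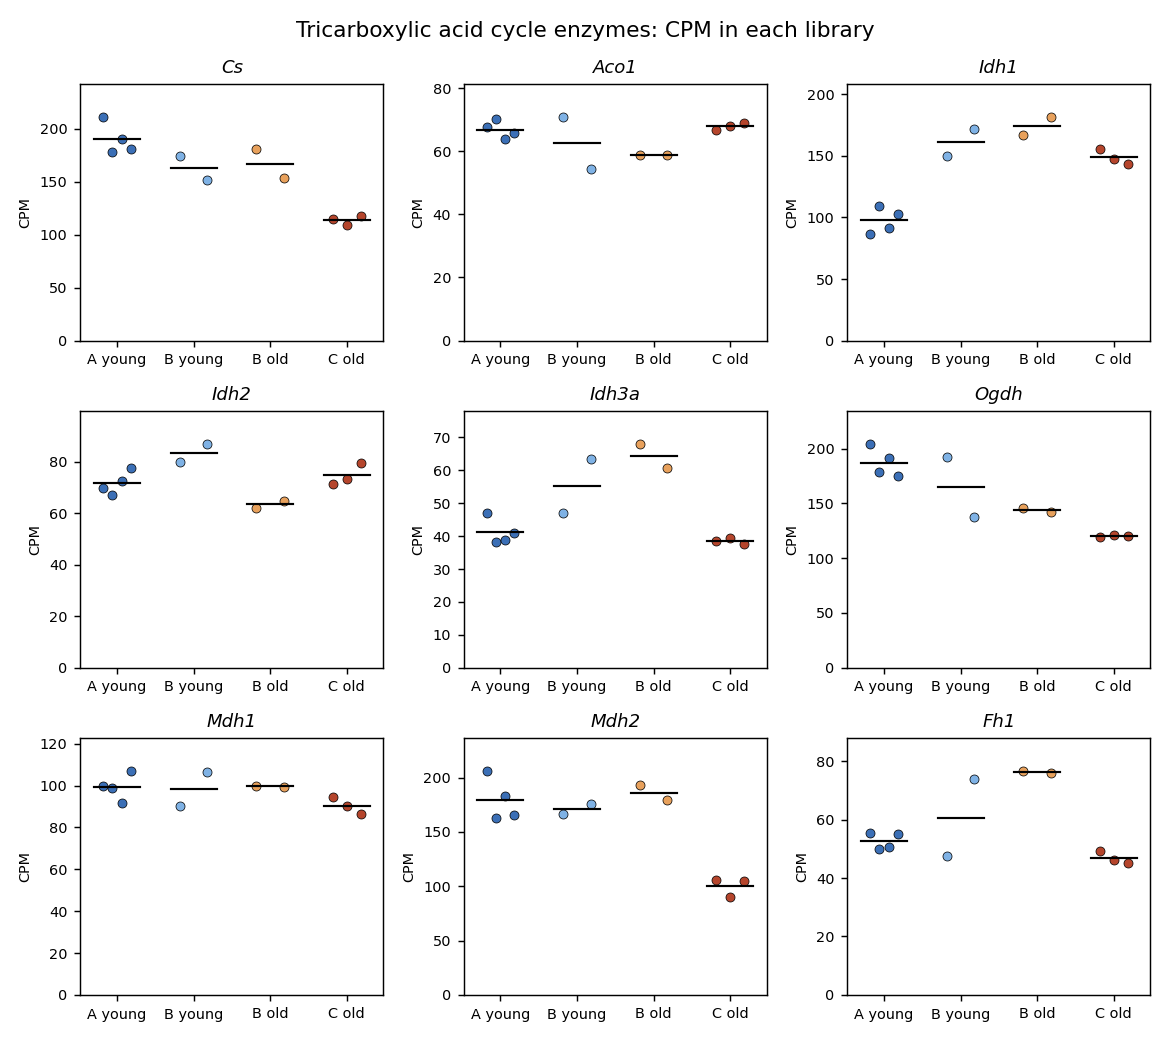
CPM of each of the 9 genes in each library (points) with the group mean (line), in batch A young (n = 4), batch B young (n = 2), batch B old (n = 2) and batch C old (n = 3), on a linear axis from 0. Cs, Ogdh and Mdh2 are lowest in batch C old (109 to 118, 119 to 121 and 90.5 to 105 CPM), and Idh1 is lowest in batch A young (86.5 to 109 CPM).

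The first comparison was that of old with young MSCs with batch accounted for. Its differences rest on the 4 libraries of batch B, while the spread behind its p-values was estimated over all 11 libraries. This comparison asks whether these transcripts differ between the ages within the same batch. None of the 9 genes passed the threshold (edgeR's quasi-likelihood test, Benjamini-Hochberg adjusted p under 0.05), against a background of 2.23% of 16132 genes tested. At an unadjusted p under 0.05 there were 2 of 9, Idh2 and Fh1, against 16.1% of all genes. The fitted log2 differences, old minus young, lay between -0.39 and 0.33 with a median of 0.03, beside a median of 0.0044 over all genes tested. The groups of batch B did not overlap for 3 of the 9 genes (Idh2, Mdh2 and Fh1), against 39.7% of all genes.

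Citrate synthase opens the cycle by joining acetyl-CoA to oxaloacetate. Cs was measured at 175 and 152 CPM in young libraries of batch B, against 181 and 153 CPM in its old ones. The young and old values interleaved, and the difference was 0.03 ± 0.12 (log2, SE, adjusted p = 0.92). The 95% interval of this difference ran from -0.20 to 0.27.

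The isocitrate dehydrogenases convert isocitrate to 2-oxoglutarate. The NADP-dependent Idh2 was measured at 80.1 and 86.9 CPM in young libraries of batch B, against 62.2 and 64.9 CPM in its old ones. Both old libraries were below both young ones, with a log2 difference of -0.39 ± 0.11 that missed the threshold (adjusted p = 0.0723). With the libraries of batch B alone, the difference was the same and its adjusted p was 0.391. The direction of Idh2 was the same under every alternative, and it passed the threshold with DESeq2 (-0.38, adjusted p = 0.0385) and with a length and GC correction (-0.41, adjusted p = 0.0236), with adjusted p between 0.0236 and 0.418 over all alternatives. The cytosolic Idh1 stood at 150.1 and 172 CPM in young and 167 and 182 CPM in old libraries of batch B, which overlapped (0.12 ± 0.12, adjusted p = 0.685). Idh3a was measured at 47.1 and 63.3 CPM in young and 67.9 and 60.7 CPM in old libraries. One young library of Idh3a was thus at the level of the old ones, and the difference was 0.22 ± 0.14 (adjusted p = 0.451).

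The remaining matrix enzymes did not pass either. Ogdh, which makes succinyl-CoA from 2-oxoglutarate, was measured at 192 and 137 CPM in young libraries of batch B, against 145 and 142 CPM in its old ones (-0.20 ± 0.13, adjusted p = 0.502). The old libraries lay between the young ones. Fh1, which hydrates fumarate to malate, stood at 47.5 and 73.8 CPM in young and 76.5 and 76.1 CPM in old libraries. Both old values were above both young ones, but the young replicates were far apart, and the difference of 0.33 ± 0.15 had an adjusted p of 0.291. Mdh2, which regenerates oxaloacetate, stood at 166 and 175 CPM in young and 193 and 179 CPM in old libraries (0.12 ± 0.13, adjusted p = 0.667).

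The cytosolic Aco1 and Mdh1 did not pass in batch B either. Aco1 was measured at 70.8 and 54.5 CPM in young libraries and at 58.8 CPM in both old ones (-0.09 ± 0.12, adjusted p = 0.741). Mdh1, which works in the malate-aspartate shuttle, stood at 90.2 and 106 CPM in young and 99.7 and 99.5 CPM in old libraries. The old libraries of Mdh1 lay between the young ones (0.02 ± 0.11, adjusted p = 0.948).

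Several of these values rested on batch B young replicate 2. Without it, Fh1 was called higher in old MSCs (0.68, adjusted p = 0.00316), as was Idh3a (0.45, adjusted p = 0.0411), and Ogdh was called lower (-0.42, adjusted p = 0.0227). The count of all genes called then went from 360 to 2007, and that of the members from 0 to 3. Without batch B young replicate 1, the fitted differences of Aco1 (0.11) and Ogdh (0.07) turned above 0 and that of Mdh1 (-0.10) below 0, and 206 genes were called. Without batch B old replicate 1 or 2, 84 and 203 genes were called, and without batch A young replicate 1 the count was 578. Where 1 library of an age was left in batch B, it was taken to vary like the libraries of the other groups. Batch B young replicate 2 also had less Lyz2 (208 CPM), a macrophage gene, than replicate 1 (341 CPM). The leukocyte markers were fitted higher in old libraries of batch B (median log2 difference 0.63, 0 of 12 called), as were the genes of dividing cells (0.65, 0 of 8 called), and their part in these values was not tested.

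**Figure D3:**
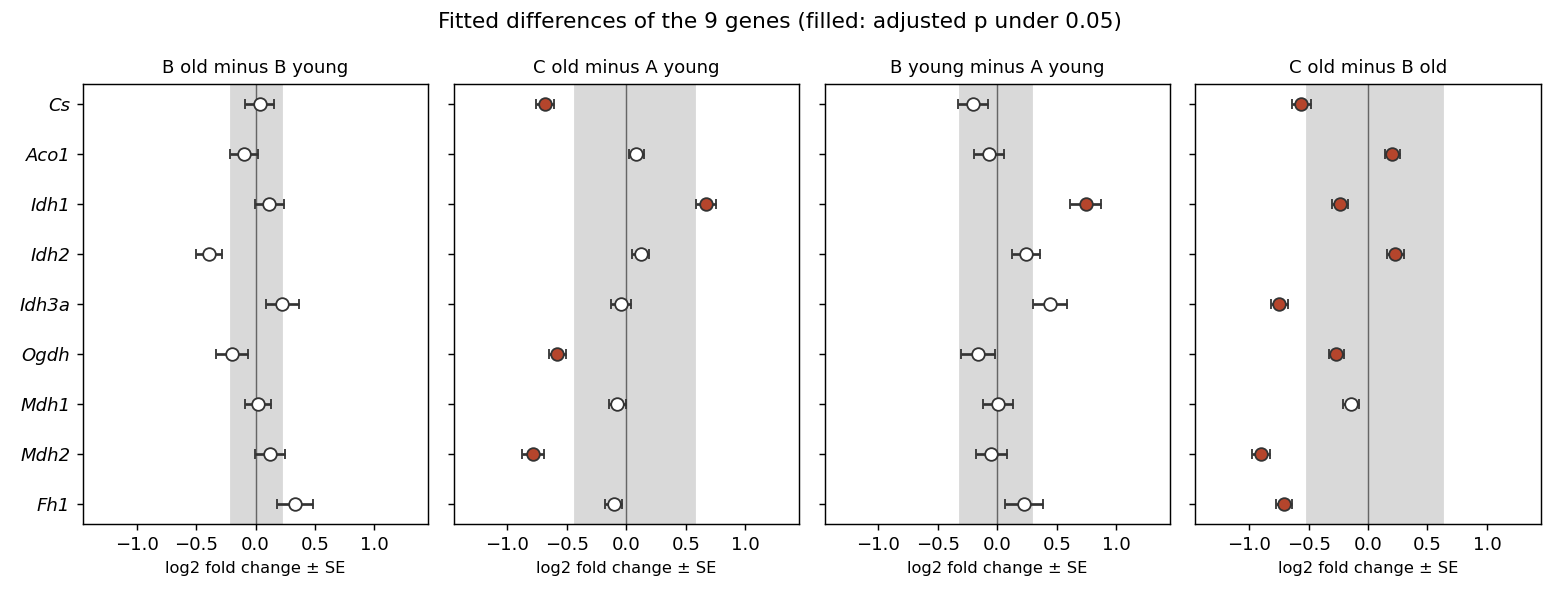
Fitted log2 fold change ± SE (x axis) of each of the 9 genes in 4 comparisons, with filled points where the adjusted p is under 0.05 and a grey band for the interquartile range of all genes tested. No point is filled for batch B old minus batch B young, 1 for batch B young minus batch A young (Idh1), 4 for batch C old minus batch A young and 8 for batch C old minus batch B old.

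The other genes of the pathway were described from 3 lists. None of the 12 other subunits of the cycle was called between the ages in batch B, and their median log2 difference was 0.02. Among 12 genes of pyruvate entry, 1 rose and 1 fell, where 0.694% of all genes tested rose and 1.54% fell. Pdk4, a kinase that inactivates pyruvate dehydrogenase, was measured at 49.4 and 57.2 CPM in young and at 120.1 and 94.3 CPM in old libraries of batch B. Pdk4 was higher in both old libraries (1.01 ± 0.14, adjusted p = 0.0016). Pdp1, the phosphatase that reactivates the complex, was measured at 154 and 174 CPM in young and at 51.6 and 104 CPM in old libraries and was lower in both old ones (-1.08 ± 0.27, adjusted p = 0.0456).

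Of 16 genes of anaplerosis, shuttles and citrate export, 2 fell with age in batch B and none rose. Pcx, which makes oxaloacetate from pyruvate, was measured at 63.3 and 52.7 CPM in young and at 36.3 and 41.3 CPM in old libraries (-0.58 ± 0.12, adjusted p = 0.014). Me3, a mitochondrial malic enzyme, was measured at 5.68 and 7.90 CPM in young and at 2.63 and 3.01 CPM in old libraries (-1.26 ± 0.25, adjusted p = 0.015). Old and young libraries of batch B did not overlap for either gene. The alternatives were not run on these lists.

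Without the batch term, 5 old libraries were compared with 6 young ones, so that differences between the batches entered the comparison. Of the 9 genes, 1 was called lower, against 8.65% of 14689 genes tested (18% in either direction). This was Ogdh, with a log2 difference of -0.46 ± 0.12, old minus young (adjusted p = 0.0234). In young MSCs Ogdh ranged from 137 to 204 CPM with a median of 185 CPM, and in old MSCs from 119 to 145 CPM with a median of 121 CPM. The groups overlapped through batch B young replicate 2, and groups of none of the 9 genes were apart, against 7.32% of all genes. The call of Ogdh did not hold without batch A young replicate 1, 3 or 4 or without batch C old replicate 1, 2 or 3 (adjusted p from 0.051 to 0.0746), with scaling by total counts (-0.23, adjusted p = 0.0998) or with replicate blocks (adjusted p = 0.108). Over all alternatives its adjusted p ran from 0.00159 to 0.108. Within batch B, the fitted difference of Ogdh was not past the threshold, as given above.

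Cs (-0.41 ± 0.15, adjusted p = 0.0669), Mdh2 (-0.38 ± 0.19, adjusted p = 0.179) and Idh1 (0.44 ± 0.18, adjusted p = 0.101) had differences of like size in the comparison without batch and did not pass. Of these, Cs passed with DESeq2 (-0.39, adjusted p = 0.0389), with the length and GC correction (-0.47, adjusted p = 0.0395), without batch B old replicate 1 (-0.52, adjusted p = 0.0149) and without batch B young replicate 2 (-0.45, adjusted p = 0.0437). Mdh2 passed without batch B old replicate 1 (-0.53, adjusted p = 0.0449). Idh1 passed without batch B young replicate 2 (0.58, adjusted p = 0.0174) and with scaling by total counts (0.65, adjusted p = 0.0311). Of the other subunits, 1 of 12 was lower (Sdha, a subunit of succinate dehydrogenase, -0.35 ± 0.10, adjusted p = 0.0328) and none higher. Of 12 genes of pyruvate entry, 2 were called lower and 1 higher (median -0.11). Among the 16 genes of anaplerosis, shuttles and citrate export 5 were called lower and none higher (31.2%, median -0.37), against 18% of all genes in either direction. Pcx, which carboxylates pyruvate to oxaloacetate, had the smallest p of these (-0.52 ± 0.09, adjusted p = 0.00893).

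Batches A and B were compared within young MSCs, to see how far the same genes differed between batches at the same age. Of the 9 genes 1 was called higher in batch B, against 9.39% of 14840 genes tested (18.1% in either direction). Idh1 was measured at 86.5, 109, 91.8 and 103 CPM in batch A young. The young libraries of batch B had 150.1 and 172 CPM. Both libraries of batch B were above all 4 of batch A, with a log2 difference of 0.75 ± 0.13 (adjusted p = 0.00383). Idh1 stayed past the threshold in every alternative, with differences from 0.59 to 0.84 and adjusted p from 7.38e-06 to 0.0445. Idh3a was measured at 47.0, 38.1, 38.7 and 40.9 CPM in batch A young against 47.1 and 63.3 CPM in batch B young and just missed the threshold (0.44 ± 0.14, adjusted p = 0.0502). It passed in 7 alternatives, with a minimum count of 10 (adjusted p = 0.0483) and without mitochondrial genes (adjusted p = 0.0499) among them, and its adjusted p ran from 0.00808 to 0.439. The groups did not overlap for 4 of the 9 genes, against 40.9% of all genes.

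Batch B young replicate 1 decided part of these differences. Without it, Idh3a (0.64, adjusted p = 0.00808) and Fh1 (0.51, adjusted p = 0.0121) were called higher and Ogdh lower (-0.42, adjusted p = 0.0362) in batch B, and 4031 genes were called in place of 2686. Without batch B young replicate 2, the difference of Fh1 was -0.13, and 511 genes were called. Without batch A young replicate 3 or 4, 1293 and 1726 genes were called, and without batch A young replicate 1 Idh3a was called (0.51, adjusted p = 0.0294). Of the other subunits, Dld, the shared dehydrogenase of the 2-oxo acid complexes, was higher in batch B young (0.72 ± 0.13, adjusted p = 0.00462), and it was the only one of 12 called. Pyruvate entry had 1 gene called higher and 1 lower (16.7%), and the list of anaplerosis, shuttles and citrate export 2 lower and none higher (12.5%). Of all genes, 18.1% were called in either direction. All 8 genes of dividing cells were called lower in batch B young (median log2 difference -1.22), and so were 5 of the 12 leukocyte markers. Of all 14840 genes tested, 1293 were called lower. The part of dividing cells and leukocytes in these differences was not tested.

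Batches B and C were compared within old MSCs. Of the 9 genes, 6 were called lower and 2 higher in batch C, against 32.6% and 32.1% of 15651 genes tested, but 2 of the 6 (Idh1 and Ogdh) were no longer called when libraries were scaled by total counts. In all, 64.7% of genes were called in either direction. Mdh2 was measured at 193 and 179 CPM in batch B old and at 105, 90.5 and 104 CPM in batch C old. All 3 libraries of batch C were below both of batch B, with a log2 difference of -0.90 ± 0.08 (adjusted p = 9.49e-07). This difference of Mdh2 was at percentile 13.1 of all genes tested.

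Fh1 and Idh3a were lower in batch C old as well. Fh1 was measured at 76.5 and 76.1 CPM in batch B old and at 49.4, 46.4 and 45.1 CPM in batch C old (-0.70 ± 0.07, adjusted p = 2.39e-06). Idh3a was measured at 67.9 and 60.7 CPM in batch B old and at 38.4, 39.4 and 37.7 CPM in batch C old (-0.75 ± 0.07, adjusted p = 3.05e-06). The batches did not overlap for either gene. Cs was at 181 and 153 CPM in batch B old and lower, at 115, 109 and 118 CPM, in batch C old (-0.56 ± 0.08, adjusted p = 5.69e-05). Ogdh, at 119, 121 and 120.2 CPM in batch C old, was lower by a smaller margin (-0.27 ± 0.06, adjusted p = 0.00213), and so was Idh1 at 156, 147 and 144 CPM (-0.23 ± 0.07, adjusted p = 0.009).

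Idh2 and Aco1 went the other way. Idh2 was measured at 71.2, 73.5 and 79.7 CPM in batch C old, above both libraries of batch B old (0.23 ± 0.07, adjusted p = 0.0136). Aco1 was measured at 66.8, 68.1 and 69.1 CPM in batch C old, also above both (0.20 ± 0.06, adjusted p = 0.0143). Mdh1 stood at 94.7, 90.3 and 86.3 CPM in batch C old and did not pass (-0.14 ± 0.07, adjusted p = 0.074). The groups did not overlap for all 9 genes, against 76.3% of all genes.

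The calls of Cs, Idh3a, Mdh2 and Fh1 between batches B and C held in every alternative. When the spread was estimated from all 11 libraries, in place of the 5 old ones with their narrow replicates, these were the 4 members called, and Aco1 (adjusted p = 0.113), Idh1 (0.0928), Idh2 (0.055) and Ogdh (0.0821) were not. Idh1 also lost its call without batch B old replicate 2 or batch C old replicate 3 (adjusted p = 0.0521 in both). Idh2 lost it without batch B old replicate 1 (0.0597), without batch C old replicate 3 (0.0564) and with replicate blocks (0.0604). The call of Aco1 was lost with DESeq2 (0.0666), with replicate blocks (0.0522) and with the length and GC correction (0.06, adjusted p = 0.378). All 12 leukocyte markers were called lower in batch C old (median log2 difference -2.45), and 5 of 8 genes of dividing cells were called higher. Of all genes tested, 32.6% were called lower and 32.1% higher. The part of leukocytes and dividing cells in these differences was not tested.

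Other parts of the pathway were also lower in batch C old than in batch B old. Of the 12 other cycle subunits 10 were called lower and none higher (median -0.26). The succinate dehydrogenase subunits Sdhd (-1.08 ± 0.07) and Sdhb (-1.02 ± 0.07) had the smallest p, with adjusted p of 8.13e-08 and 1.49e-07. Of 12 genes of pyruvate entry 10 were called lower and 1 higher (median -0.42), among them Mpc2, a subunit of the mitochondrial pyruvate carrier (-1.002 ± 0.09, adjusted p = 9.11e-07). Of 16 genes of anaplerosis, shuttles and citrate export 11 were called lower and 2 higher (median -0.46). Of these Pck2, Gpt2 and Got1 were lower, with log2 differences of -1.23, -1.25 and -1.26. Of all genes tested, 32.6% were called lower and 32.1% higher, with a median of 0.02.

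Batch C old was finally set against batch A young, a comparison in which age and batch cannot be told apart. Its groups share no library with the groups of batch B, although the spread for the age comparison in batch B was estimated over all 11 libraries. Of the 9 genes, 3 were lower and 1 was higher in batch C old, against 31.9% and 32% of 15021 genes tested (63.8% in either direction). Cs was measured at 211, 178, 191 and 181 CPM in batch A young, above all batch C old libraries (-0.68 ± 0.08, adjusted p = 6.2e-06). Mdh2 stood at 206, 163, 183 and 166 CPM in batch A young, also above all of batch C old (-0.78 ± 0.09, adjusted p = 1.06e-05). Ogdh was measured at 204, 179, 191 and 175 CPM in batch A young (-0.58 ± 0.07, adjusted p = 1.37e-05). Idh1 was the gene that was higher in batch C old (0.67 ± 0.08, adjusted p = 2.01e-05). These 4 calls held in every alternative. Of the other lists, 7 of 12 cycle subunits, 6 of 12 genes of pyruvate entry and 10 of 16 genes of anaplerosis, shuttles and citrate export were called lower, while 1, 2 and 2 were called higher.

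The other 5 genes did not pass in the comparison of batch C old with batch A young. Fh1 was measured at 55.4, 49.9, 50.5 and 55.0 CPM in batch A young (-0.11 ± 0.07, adjusted p = 0.213) and Mdh1 at 99.8, 99.0, 91.8 and 107 CPM (-0.08 ± 0.07, adjusted p = 0.375). Idh2, at 69.7, 67.0, 72.6 and 77.8 CPM in batch A young, overlapped with batch C old (0.12 ± 0.08, adjusted p = 0.18), as did Aco1, at 67.7, 70.3, 63.9 and 65.6 CPM (0.08 ± 0.06, adjusted p = 0.278). Idh3a differed by -0.04 ± 0.08 (adjusted p = 0.675). The groups did not overlap for 5 of the 9 genes, against 64.5% of all genes. The 5 genes that did not pass depended on the scaling. Scaling by total counts moved the median of all genes to 0.31, and all 9 genes were then called. Idh3a (0.25), Mdh1 (0.22) and Fh1 (0.19) then lay above 0 but below that median. The length and GC correction added calls of Idh2 (0.30), Mdh1 (-0.23) and Fh1 (-0.19). Leukocyte markers were called lower in 11 of 12 cases here (median -2.73), against 31.9% of all genes, and their part was not tested.

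The 2 age differences were then set against each other for each gene, as the difference in batch B minus that of batch C old against batch A young. This contrast was added after the data had been seen. It passed for 4 of the 9 genes, against 35.7% of 16132 genes tested. Mdh2 (0.97 ± 0.16, adjusted p = 0.000284) and Cs (0.78 ± 0.15, adjusted p = 0.00116) had the largest contrasts of the 9 genes. Their levels were lower in batch C old than in batch A young and were not called between the ages of batch B. Idh1 (-0.49 ± 0.16, adjusted p = 0.0214) and Idh2 (-0.45 ± 0.14, adjusted p = 0.0165) went the other way. Ogdh (0.45 ± 0.17, adjusted p = 0.0519) and Fh1 (0.50 ± 0.19, adjusted p = 0.053) just missed the threshold.

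Mitochondrial and cytosolic isozymes catalyse the same reaction in different compartments, and their ratio within a library does not depend on how libraries are scaled. It can still depend on length and GC content, and the correction for these was not run on the ratios. For batch C old minus batch A young, this correction moved the log2 difference of Idh2 from 0.12 to 0.30 and that of Idh1 from 0.67 to 0.42. Per length of the longest transcript, coding or not, the log2 ratio of Idh2 to Idh1 was 0.05, -0.35, 0.03 and -0.04 in batch A young. It was -0.54 and -0.62 in batch B young. It was -1.07 and -1.12 in old libraries of batch B and -0.76, -0.64 and -0.49 in batch C old. Without a correction for length and GC content, batch A young lay above all other libraries and batch B old below them. Within batch B the ratio differed by -0.51 (old minus young) without overlap, where an exact two-sided permutation test of 2 against 2 libraries cannot go below p = 0.333. The difference of batch C old from batch A young was -0.55 (exact permutation test, p = 0.0571), and that of batch B young from batch A young was -0.51 (exact permutation test, p = 0.0667, the smallest possible).

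The ratio of Mdh2 to Mdh1, per the same length, was between 1.04 and 1.44 in batch A young and between 1.12 and 1.29 in batch B young. It was between 1.25 and 1.35 in batch B old, but between 0.41 and 0.68 in batch C. With merged exon length, the batch C old ratios were negative (-0.47 to -0.20). The length is constant for each gene and cancels in the differences between groups, so these cannot depend on it. Batch C old was below all other libraries, by a difference of -0.70 from batch A young (exact permutation test, p = 0.0286, the smallest possible for 4 against 3) and -0.76 from batch B old (exact permutation test, p = 0.1, the smallest possible). Within batch B the ages overlapped (0.10, exact permutation test, p = 0.667). None of these 8 ratio tests passed after Benjamini-Hochberg adjustment over all of them, and the lowest adjusted value was 0.16.

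**Figure D4:**
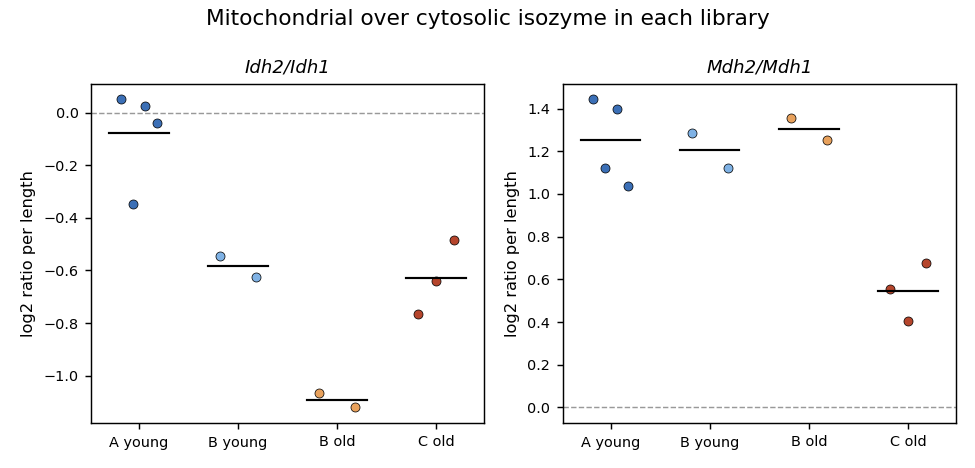
Log2 ratio of the mitochondrial to the cytosolic isozyme, per length of the longest transcript, in each library (points) with the group mean (line), for Idh2 and Idh1 and for Mdh2 and Mdh1. Batch B old has the lowest ratio of Idh2 to Idh1 (-1.12 and -1.07), and batch C old has the lowest ratio of Mdh2 to Mdh1 (0.41 to 0.68).

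Profiles were compared as the root mean square difference of log2 CPM over the 11 libraries, each gene centred on its own mean. Because the libraries fall into batches, likeness partly states that genes share a batch pattern. Among the members, Idh3a and Fh1 were closest (0.11), followed by Cs and Ogdh (0.13) and Cs and Mdh2 (0.15). Idh1 and Mdh2 were the least alike (0.60). Of 13176 protein-coding genes, Psma4, a subunit of the proteasome core, was nearest both to Idh3a (0.07) and to Fh1 (0.07). Eif6 was nearest to Mdh2 (0.07) and Eif3c to Ogdh (0.05), both translation initiation factors. Rps6ka4, a kinase, was nearest to Cs (0.06). Zfp260 was nearest to Idh1 (0.08), Golph3l to Idh2 (0.06), Fam168a to Aco1 (0.04) and Fam192a to Mdh1 (0.05). The median distance to all candidates was between 0.36 (Mdh1) and 0.53 (Idh1).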

How the data were processed

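Gene counts of 11 libraries were analysed. The authors deposited 1 table of raw counts in whole numbers, and the build mm10 (GRCm38) is named in the processing notes of the labels, while aligner, counter and strand setting are not given in the sources used here. Of 28222 genes, 28179 were matched to GENCODE M21 and 43 were not. The paper of this series describes another experiment, and no method was taken from it.

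Groups follow age and batch in the labels. The deposited counts entered edgeR 4.0.16 (R 4.3.3) without change, and its quasi-likelihood test was used (filterByExpr with a minimum count of 5, TMM factors, two-sided, Benjamini-Hochberg adjustment over all genes tested, threshold 0.05). The age comparison with batch is the age coefficient of a fit with a batch term to all 11 libraries. Intervals of differences are 1.96 SE either way. TMM-scaled totals were the base of CPM, with 2 as the prior count of log2 CPM. Totals of 11969336 to 20315934 counts place 3 counts at 0.156 to 0.253 CPM. Ratios used exact permutation tests over libraries, and 1 further ratio and 1 gene of a list are not reported here. The smallest chi-square per gene between 2 libraries was 3.07, so none was a duplicate.

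All 9 genes are named in every comparison. From the 3 further lists, the genes past the threshold with the batch term, or at most the 5 with the smallest p per direction elsewhere, could be named. The members and lists were chosen with earlier results of these data known. Alternatives were limma-trend (limma 3.58.1), DESeq2 1.42.0, scaling with RLE factors or with total counts, no filter or a minimum count of 10, batch B alone, replicate blocks, a loess correction for length and GC content (span 0.3), removal of 19 mitochondrial genes, the spread from all 11 libraries, and leaving out each library. Simulated counts with the same spread for every gene and library were run through the tests, which does not check the unequal spreads of the real groups. No library was left out of the reported values.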

Additional observations from a re-analysis of the deposited data

Results flagged for a closer look

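For 4 of the 9 genes the age difference in batch B and the difference of batch C old from batch A young were unlike each other by a test of the contrast itself (edgeR's quasi-likelihood test on 11 libraries, adjusted over 16132 genes). The contrast was 0.97 for Mdh2, 0.78 for Cs, -0.49 for Idh1 and -0.45 for Idh2 on the log2 scale, and 35.7% of all genes passed it. For Mdh2, both old libraries of batch B (193 and 179 CPM) were above both young ones, and all batch C old libraries (90.5 to 105 CPM) were below all batch A young libraries (163 to 206 CPM). For Idh2, both old libraries of batch B were below both young ones, while batch C old overlapped with batch A young. Neither gene passed between the ages in batch B (edgeR's quasi-likelihood test, adjusted p = 0.667 for Mdh2 and 0.0723 for Idh2). Groups did not overlap for 39.7% of all genes in batch B and for 64.5% between batch C old and batch A young. The second difference holds batch as well as age, which cannot be told apart. No library stood out by Dixon's test for any of the 9 genes in batch A young, the only group of at least 4 libraries, and the smaller groups were not tested.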

How the results depend on the processing

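With the batch term, 360 genes were called, and 640 with DESeq2, 1094 without a filter, 123 in batch B alone and 84 to 2007 with 1 library left out. Members called went from 0 to 1 with DESeq2 and with the length and GC correction, and to between 0 and 3 with 1 library left out. The fitted values of Cs (-0.011), Idh1 (-0.012) and Mdh1 (-0.091) turned below 0 with the length and GC correction. With 1 library left out, values ran from -0.082 to 0.15 for Cs, -0.27 to 0.11 for Aco1, -0.42 to 0.065 for Ogdh and -0.096 to 0.14 for Mdh1. Without the batch term, 2641 genes and 1 member were called, with 761 to 3989 genes and 0 to 3 members when 1 library was left out, and 2 members were called with DESeq2 and with the length and GC correction. Aco1 turned above 0 with DESeq2 (0.016), RLE factors (0.016), total counts (0.23), a minimum count of 10 (0.024), the length and GC correction (0.043) and without mitochondrial genes (0.0091). Idh2 did so with total counts (0.14) and the correction (0.027), and Mdh1 with total counts (0.17). With 1 library left out, Aco1 ran from -0.047 to 0.037, Idh3a from -0.031 to 0.23 and Fh1 from -0.012 to 0.21. Between batches A and B, 2686 genes were called, 4171 with the spread from all 11 libraries and 511 to 4031 with 1 library left out. Members called were 2 in place of 1 with total counts, no filter, a minimum count of 10, the correction, no mitochondrial genes and the spread from all 11 libraries, and 1 to 4 with 1 library left out. Mdh1 turned to -0.0021 with DESeq2, -0.0019 with RLE factors, -0.10 with the correction and -0.017 with the wider spread. Aco1 turned to 0.0040 and Mdh2 to 0.031 with total counts, and Aco1 to 0.079 and Ogdh to 0.013 with the correction. With 1 library left out, values ran from -0.27 to 0.10 for Aco1, -0.095 to 0.021 for Mdh2, -0.12 to 0.12 for Mdh1, -0.42 to 0.058 for Ogdh and -0.13 to 0.51 for Fh1. Between batches B and C, 4 members in place of 8 were called with the spread from all 11 libraries, and Mdh1 turned to 0.051 with total counts. For batch C old against batch A young, 9 members were called with total counts and 7 with the correction in place of 4. There Idh3a (0.25), Mdh1 (0.22) and Fh1 (0.19) turned with total counts, and Idh3a ran from -0.086 to 0.021 with 1 library left out. The log2 ratios turned only for Mdh2 to Mdh1 between batches A and B, from -0.13 to 0.034 when 1 library was left out. The length and GC correction was not run on the ratios. For values that turned, the cause was not tested.

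Replicate numbers did not pair the libraries (correlations of deviations from -0.11 to 0.04). With replicate blocks, 294 genes and 0 members were called for age with batch, 0 genes and 0 members without batch, and 729 genes between batches A and B, where Mdh1 stood at -0.0001. Total counts moved the median of all genes to 0.22 without batch, 0.22 between batches B and C and 0.31 for batch C old against batch A young, and no filter to 0.12, 0.11 and 0.21. Total counts also changed the share of calls that were higher from 31.1% to 44.8% with batch, from 51.9% to 86.8% without it, from 51.9% to 66.4% between batches A and B, from 49.6% to 62.9% between B and C, and from 50.1% to 72.5% for batch C old against batch A young. Limma-trend changed no call of the 9 genes. With 2 libraries per age in batch B, small differences could not be resolved.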

Other observations

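Leukocyte and macrophage genes were present beside the MSC markers. Lyz2 was measured at 243 to 416 CPM in the libraries of batch A. In batch B it was measured at 341 and 208 CPM in young MSCs and at 582 and 419.7 CPM in old MSCs, and all libraries of batch C were lower (61.5 to 73.9 CPM). Of the 8 MSC markers, 1 was called lower and none higher in old MSCs with the batch term, against 1.54% of all genes lower. Their summed level was 3388 to 3611 CPM in young and 3107 to 3183 CPM in old libraries of batch B. In batch C old, 3 were called higher and 2 lower than in batch B old, against 32.1% and 32.6% of all genes (64.7% in either direction). Of these markers, Pdgfra was measured at 236 and 195 CPM in the young libraries of batch B, against 109 and 128 CPM in its old libraries. Batch C old had the most Pdgfra (268 to 289 CPM) and the least Ly6a (270.3 to 320.3 CPM) of the 4 groups. Ly6a, which encodes Sca-1, was measured at 651 and 778 CPM in young and at 648 and 569 CPM in old libraries of batch B.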
